A study of Homo sapiens with 6 samples.

Results

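Transcripts of 5 enzymes were followed on 6 expression arrays of MOLM14 cells, a human cell line established from acute myeloid leukaemia of the monocytic kind. PHGDH, PSAT1 and PSPH make serine from a glycolytic intermediate, and SHMT2 and MTHFD1L carry serine's one-carbon unit through the mitochondrial folate pathway. The genes were chosen by name with earlier results of these data known. Their counts beside the shares of all genes are therefore descriptions and no test. All 5 had a named array feature, and they are 5 of the 14884 genes that could be named and tested. Each of them had a single such feature, so the choice of the brightest feature per gene had no effect on them.

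The cells had received, by electroporation at 70 nM, a commercial siRNA that targets ATF4 (the siATF4 group, 3 arrays) or a control pool of siRNA without a target (the siCTRL group, 3 arrays). Both groups share the line, the serum-containing RPMI medium and the transfection, and the time between transfection and harvest is not given in the labels. The labels number the samples 1 to 3 in each group and call them technical replicates. Nothing in the labels says that they came from separate cultures, so a p-value here reflects just the variation among these samples, some or all of which may be technical. All levels are the deposited values, read as log2 signal, and every difference is siATF4 minus siCTRL on that scale, so that a negative value means less signal with siATF4. A signal depends on the probes as well as on the transcript, so levels are compared between arrays and not between genes. In cells measured in bulk, fewer cells of a type and less RNA per cell cannot be told apart.

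Serine is made from 3-phosphoglycerate, taken from glycolysis, by an oxidation (PHGDH), a transamination that uses glutamate (PSAT1) and the removal of phosphate (PSPH). In mitochondria SHMT2 splits serine into glycine and a carbon unit bound to tetrahydrofolate, MTHFD2 oxidises that unit, and MTHFD1L releases it as formate for purine and thymidylate synthesis in the cytosol. ATF4, the main transcription factor of the integrated stress response, is known as an activator of several of these genes when amino acids run short, and it binds as a dimer with C/EBP proteins to a composite element, written here as TGATGNAA.

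RefSeq promoter windows (GRCh38.p14, 250 bases before and 50 after a start) were at hand for 3 of the members, PHGDH, PSAT1 and MTHFD1L. They are shown up to the start because the comparison concerns the factor that reads the composite element. Both strands of the whole 300-base windows were searched for TGATGNAA, for the cyclic AMP response element TGACGTCA and for the E-box CACGTG, and matches are in capitals. The windows lie on the plus strand at chr1:119711684-119711933 for PHGDH, chr9:78296875-78297124 for PSAT1 and chr6:150866236-150866485 for MTHFD1L.
PHGDH: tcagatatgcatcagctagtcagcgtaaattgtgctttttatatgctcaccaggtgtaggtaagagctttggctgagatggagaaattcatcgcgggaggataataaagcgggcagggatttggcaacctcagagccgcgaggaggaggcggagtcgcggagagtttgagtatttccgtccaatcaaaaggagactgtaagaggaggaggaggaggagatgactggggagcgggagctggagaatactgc
PSAT1: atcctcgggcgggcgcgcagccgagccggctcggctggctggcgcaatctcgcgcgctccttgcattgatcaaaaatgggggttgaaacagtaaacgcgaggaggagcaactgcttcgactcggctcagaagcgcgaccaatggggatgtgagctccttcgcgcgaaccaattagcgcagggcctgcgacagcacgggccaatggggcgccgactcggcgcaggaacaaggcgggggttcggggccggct
MTHFD1L: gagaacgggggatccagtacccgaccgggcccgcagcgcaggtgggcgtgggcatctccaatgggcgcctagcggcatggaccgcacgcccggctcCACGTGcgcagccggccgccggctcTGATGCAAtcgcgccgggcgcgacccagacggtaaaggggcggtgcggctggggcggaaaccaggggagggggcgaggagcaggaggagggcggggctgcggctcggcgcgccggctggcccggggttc
The MTHFD1L window holds TGATGCAA at chr6:150866357-150866364, 129 bases before the start at 150866486, and an E-box that begins 154 bases before it. Further start sites are listed for this gene, at 150866333, 150866447 and 151007008. The windows of the first and second of these overlap the one shown and contain the same matches, and the last holds none. The element lies 90 bases before the start at 150866447 but downstream of the start at 150866333. No match to the 3 motifs was found in the windows of PHGDH and PSAT1, which says only that these letters are not in these windows. Of all 35116 windows in the table, 3.62% hold TGATGNAA, 1.85% TGACGTCA and 7.26% CACGTG. A match is a description of the sequence and no evidence of binding.

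The targeted gene was checked first. In the order of the replicate numbers, ATF4 had levels of 7.72, 7.88 and 8.14 after siATF4, against 8.67, 8.64 and 8.85 after siCTRL. The groups did not overlap, and the siATF4 mean corresponded to 57.4% of the control signal. Markers of a monocytic myeloid line were present, with list means of 7.68 to 8.35 on the siATF4 arrays and 7.71 to 8.48 on the siCTRL arrays over 9 measured genes of 14. The myeloperoxidase gene MPO varied most among them, from 5.58 on siATF4 replicate 1 to 10.45 on siATF4 replicate 3. Of the T cell, B cell, erythroid and epithelial markers, 2, 1, 1 and 4 of 5 each were measured. The T cell genes CD2 and CD8A lay between 3.92 and 4.20, and the erythroid KLF1 between 3.57 and 3.86, near the array medians of 3.88 to 3.96. The B cell factor PAX5 was brighter, at 3.76 to 6.12, and was lowest on siATF4 replicate 1, and the epithelial list reached 7.40 through KRT18. The part of these differences in the results was not tested.

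All 5 enzymes had a lower mean signal with siATF4 than with siCTRL, but no member passed limma's test adjusted over all 14884 genes (adjusted p of 1.00 for each), and neither did any other gene (0% of the genes tested). The mean differences were -1.01 for PSAT1, -0.62 for PHGDH, -0.57 for SHMT2, -0.26 for MTHFD1L and -0.11 for PSPH. The median over the members was -0.57, beside 0.01 over all genes, of which 46.2% were below 0. On every array each member lay above at least 71.5% of the genes tested, so none of them was among the dim features. At an unadjusted p below 0.05 in limma there were 79 lower genes in all (0.531%), PSAT1 and SHMT2 among them, and 139 higher ones. Together they made up a share of all genes below 0.05, which is what this level gives when no gene differs. The 0.531% is therefore no measure of how rarely such a p arises by chance.

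**Figure D1:**
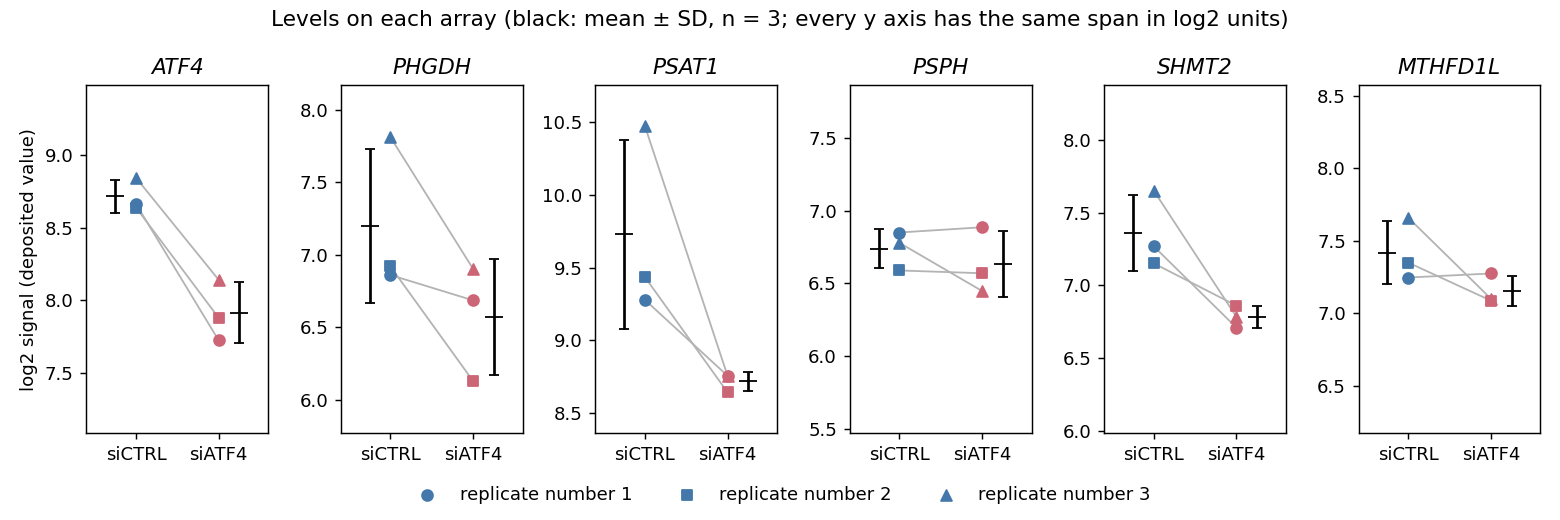
Log2 signal of ATF4 and the 5 enzymes on each array, siCTRL on the left and siATF4 on the right of each panel, with grey lines joining arrays of the same replicate number and black bars for the mean and SD (n = 3). The 3 siATF4 arrays of PSAT1 sit between 8.64 and 8.75, while its siCTRL arrays run from 9.28 to 10.48, and the siCTRL replicate 3 array is the highest of all for PHGDH, PSAT1, SHMT2 and MTHFD1L.

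Of the serine synthesis enzymes, PHGDH catalyses the first and committing step. Its log2 signal was 6.69, 6.13 and 6.90 for siATF4 replicates 1, 2 and 3, against 6.86, 6.92 and 7.81 for the siCTRL replicates. The groups overlapped by a narrow margin, since siATF4 replicate 3 lay 0.04 above siCTRL replicate 1, and both extremes were single arrays, siATF4 replicate 2 at the low end and siCTRL replicate 3 at the high end. The means were 6.57 ± 0.40 and 7.20 ± 0.53 (SD, n = 3 each). The difference of -0.62 had a standard error (SE) of 0.31 and a 95% interval from -1.36 to 0.11 in limma, and the exact two-sided permutation p was 0.2. With the replicate number as a block the interval for PHGDH ran from -1.04 to -0.21. Without siCTRL replicate 3 the difference was -0.32, and without siATF4 replicate 2 it was -0.40.

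PSAT1, the aminotransferase of the second step, had the largest difference of the 5 and ranked 27th from the lowest of the 14884 genes. After siATF4 it read 8.75, 8.64 and 8.75, and after siCTRL 9.28, 9.44 and 10.48. No siATF4 array reached the control range, with a gap of 0.52 between the nearest ones. The siATF4 arrays covered a range of 0.11, against 1.20 for the controls. The means were 8.72 ± 0.07 and 9.73 ± 0.65 (SD, n = 3 each), the difference was -1.01 (SE 0.30, 95% interval -1.74 to -0.29 in limma), and 49.5% of the control signal remained. An exact two-sided permutation test gave p = 0.1, below which groups of 3 and 3 cannot go. Much of the size came from siCTRL replicate 3: without it the difference was -0.64.

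PSPH, the phosphatase of the last step, had the smallest difference of the 5. Its values were 6.89, 6.57 and 6.45 with siATF4, compared with 6.85, 6.59 and 6.78 under siCTRL. The highest and the lowest array of the 6 were both siATF4 arrays, and the groups overlapped throughout. The difference was -0.11 (SE 0.15) with a limma interval from -0.46 to 0.25, which covers both a fall and a rise, and the exact permutation p was 0.6 (two-sided). It was -0.01 without siATF4 replicate 3 and 0.01 without both arrays of number 3. The RefSeq gene table lists a pseudogene, PSPHP1, on the same chromosome 7, and whether its transcripts reach this feature was not tested.

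Of the mitochondrial enzymes, SHMT2, which feeds serine carbon into the folate pool, read 6.71, 6.86 and 6.78 after siATF4, compared with 7.27, 7.15 and 7.65 after siCTRL. Every siATF4 array lay below every siCTRL array, by at least 0.29. The means were 6.78 ± 0.08 and 7.36 ± 0.26 (SD, n = 3 each), with a difference of -0.57 (SE 0.15, 95% interval -0.94 to -0.21 in limma) and 67.2% of the control signal left (exact two-sided permutation p = 0.1). SHMT2 depended least on single arrays among the 3 members with large differences: leaving out any 1 array gave -0.68 to -0.43.

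MTHFD1L, which releases formate at the end of the mitochondrial branch, stood at 7.27, 7.09 and 7.10 with siATF4 and at 7.25, 7.35 and 7.66 with siCTRL. Only siATF4 replicate 1 reached into the control range, 0.03 above siCTRL replicate 1. The means were 7.15 ± 0.10 and 7.42 ± 0.21 (SD, n = 3 each), and the difference of -0.26 (SE 0.14) had a limma interval from -0.60 to 0.07 (exact two-sided permutation p = 0.2). Without siCTRL replicate 3 it was -0.14. Of the 3 members with a promoter window, this is the one that holds the composite element, and its difference was the smallest of the 3. Whether the element goes with the size of a difference was not tested, and 3 genes cannot show it. MTHFD2, which acts between SHMT2 and MTHFD1L, has no named feature and was not analysed here.

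**Figure D2:**
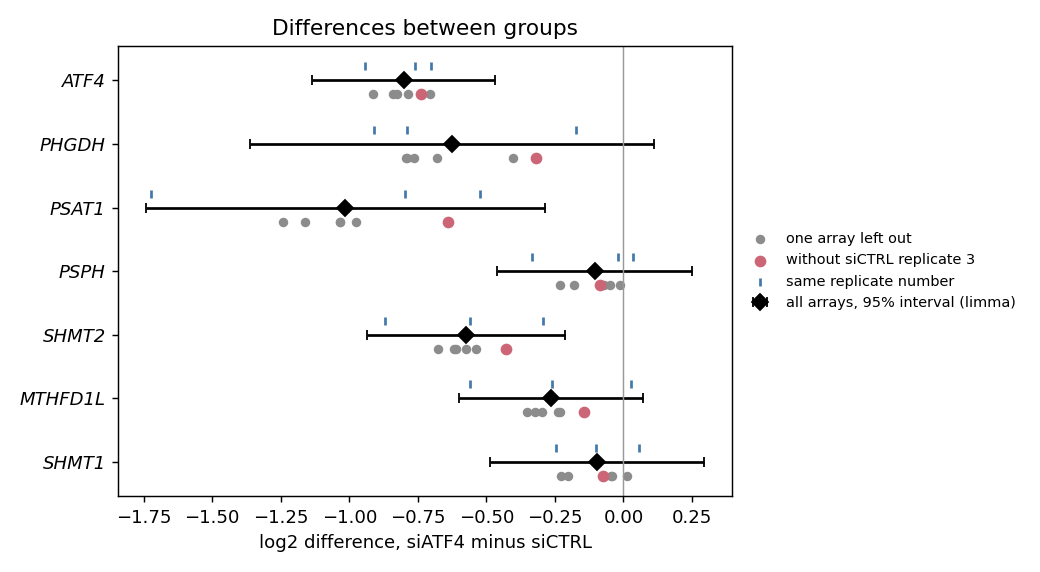
Log2 differences (siATF4 minus siCTRL, horizontal axis) of ATF4, the 5 enzymes and SHMT1, with diamonds and bars for the estimate and 95% interval from limma, blue ticks for pairs of arrays with the same replicate number, and points for fits with 1 array left out. The intervals of ATF4, PSAT1 and SHMT2 lie below 0, and the points without siCTRL replicate 3 move PHGDH to -0.32 and PSAT1 to -0.64.

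The groups did not overlap for 2 of the 5 members, PSAT1 and SHMT2, where 2.59% of all genes tested had every siATF4 array below every siCTRL array. Without siATF4 replicate 1 or without siCTRL replicate 1 the count was 4, and with any other array left out it was 2 or 3. Leaving out an array can only keep or raise this count. The share of 2.59% holds for all 6 arrays, and no share of all genes is at hand with an array left out. Compared by replicate number, 3 of the 5 members (PHGDH, PSAT1 and SHMT2) were lower with siATF4 in every number, as were 9.2% of all genes. The differences for numbers 1, 2 and 3 were -0.17, -0.79 and -0.91 for PHGDH. For PSAT1 they were -0.52, -0.80 and -1.72. SHMT2 differed by -0.56, -0.29 and -0.87, MTHFD1L by 0.03, -0.26 and -0.56, and PSPH by 0.04, -0.02 and -0.33. The arrays of number 3 thus gave the largest difference for each member. ATF4 itself differed by -0.94, -0.76 and -0.70, so its difference was smallest in number 3. With the replicate number as a block in limma, PHGDH joined PSAT1 and SHMT2 at an unadjusted p below 0.05, so that 3 of 5 members were lower at that level beside 0.934% of all genes. The block raised the number of lower genes from 79 to 139 and that of higher genes from 139 to 325. Together these still made up a share of all genes below 0.05. The adjusted p in limma with the block was 0.999 for each of the 5.

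The control arrays were not alike in these transcripts. On siCTRL replicate 3, PHGDH lay 0.92 above the mean of the other siCTRL arrays, PSAT1 1.12, SHMT2 0.44, MTHFD1L 0.36 and PSPH 0.06. On siATF4 replicate 3 the corresponding distances from the other siATF4 arrays were 0.49, 0.06, 0.00, -0.08 and -0.28. For PSAT1, SHMT2 and MTHFD1L the high signal of the number 3 control array therefore had no counterpart of that size on the siATF4 array of the same number. Genes of DNA replication were high on both arrays of number 3: the mean of 16 measured genes was 7.49, 7.27 and 7.86 for siATF4, compared with 7.43, 7.50 and 7.96 for siCTRL. The mean of 11 interferon response genes was 4.49, 5.93 and 4.85 with siATF4 and 6.80, 5.76 and 4.90 with siCTRL. It was highest on siCTRL replicate 1 and lowest on siATF4 replicate 1. MPO, PAX5 and the glycolytic gene PGAM1 were also lowest on siATF4 replicate 1. All 11 interferon genes had a lower mean with siATF4, with a median difference of -0.71, though the groups overlapped for each. A list with every gene lower was therefore not particular to the 5 enzymes. Of the 16 replication genes 12 were lower and 4 higher, with a median of -0.09. The part of these array states in the enzymes' values was not tested.

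Whether the members differed by unlike amounts was asked with the gap between 2 genes on the same array. Of the 10 pairs of members, 4 had gaps that did not overlap between groups, beside 5.62% of all pairs of genes tested. The 10 pairs share genes and are not independent, and nothing particular to the members is read from this count. Each of the 4 has the smallest exact two-sided p of 0.1 before any adjustment over the pairs. The gap of PSAT1 over PSPH was 2.08 ± 0.22 with siATF4 and 2.99 ± 0.65 with siCTRL (SD, n = 3 each), with differences of -0.56, -0.78 and -1.39 in numbers 1, 2 and 3. The other pairs were PSAT1 with MTHFD1L, PSPH with SHMT2, and SHMT2 with MTHFD1L. SHMT1 is the cytosolic counterpart of SHMT2. It read 5.64, 5.31 and 5.32 with siATF4, compared with 5.74, 5.26 and 5.56 under siCTRL, a difference of -0.10 (limma 95% interval -0.49 to 0.30). The gap of SHMT2 over SHMT1 was 1.36 ± 0.25 with siATF4 and 1.84 ± 0.28 with siCTRL (SD, n = 3 each). It was smaller with siATF4 in each of the 3 numbers, by -0.48 on average, but the groups overlapped by 0.02 and the exact two-sided permutation p was 0.2.

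Genes of the surrounding pathways lay on both sides of 0. Of 70 genes in 6 lists, 43 were measured, 21 of them lower and 22 higher with siATF4, with a median difference of 0.02. None passed limma's adjusted threshold, and at an unadjusted p below 0.05 there was 1 lower gene (CBS) and 0 higher ones. With the replicate block in limma, SRR joined CBS at that level on the higher side. The groups did not overlap for 4 of the 43, 2 with siATF4 below and 2 with siATF4 above, beside 2.59% and 3.3% of all genes. Some of the 43 read near or below the array medians of 3.88 to 3.96, where a fall can hardly show. Among them were FOLR2, BHMT2 and ADSS1, with siCTRL means of 3.52, 3.53 and 3.97. The split of 21 lower and 22 higher therefore includes dim features, unlike the 5 members.

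**Figure D3:**
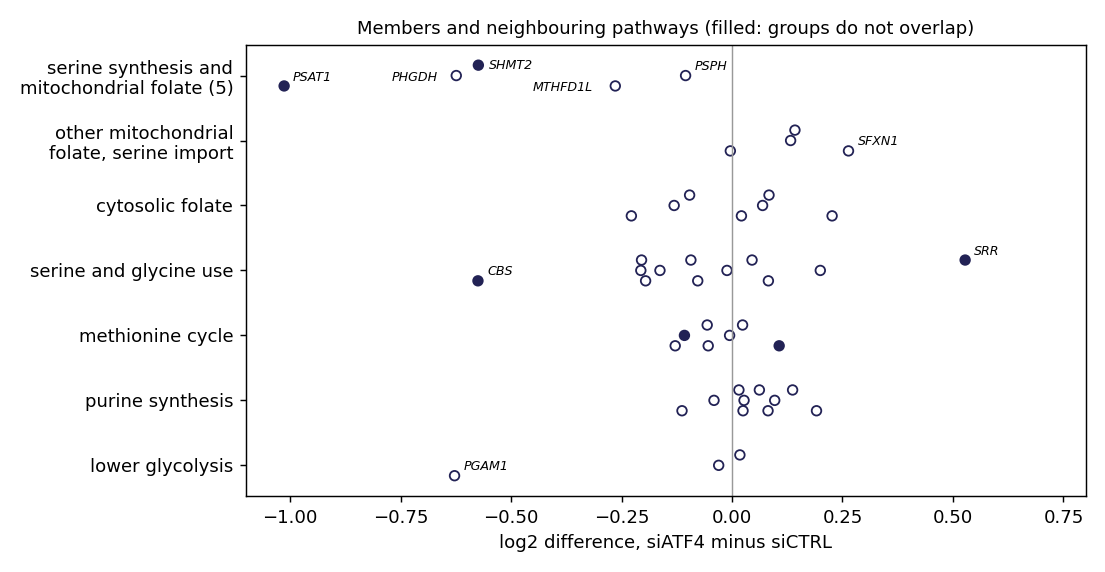
Log2 difference (siATF4 minus siCTRL) of each measured gene in 7 lists, 1 point per gene, filled where the 3 siATF4 and the 3 siCTRL arrays do not overlap. The 5 enzymes lie from -1.01 to -0.11, while the other lists lie on both sides of 0, with CBS (-0.57) and PGAM1 (-0.63) apart on the low side and SRR (0.53) on the high side.

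Among other genes of the mitochondrial branch, 4 of 7 were measured, 1 lower and 3 higher. SFXN1, a transporter that brings serine into mitochondria, differed by 0.26 (limma interval -0.27 to 0.80). Without siATF4 replicate 3, SFXN1 was at 0.13, without siCTRL replicate 2 at 0.14, without siCTRL replicate 1 at 0.15 and without siCTRL replicate 3 at 0.49. Its relative SFXN3 differed by 0.14 and the MTHFD2 relative MTHFD2L by 0.13. SFXN1 and SFXN3 were higher with siATF4 in each of the 3 numbers, as were 14.4% of all genes. For numbers 1, 2 and 3 the differences were 0.34, 0.38 and 0.07 for SFXN1. For SFXN3 they were 0.21, 0.22 and 0.0007, so number 3 showed next to none. The limma interval of SFXN3 ran from -0.87 to 1.15. SHMT2, which uses the imported serine, was lower in each number. Whether import and use differ in opposite directions was not tested. Of the cytosolic folate genes 7 of 15 were measured, 3 lower and 4 higher. Thymidylate synthase (TYMS), a consumer of the folate carbon unit, was at -0.23 (limma interval -0.99 to 0.53), at 0.01 without siCTRL replicate 3 and at -0.54 without siATF4 replicate 3. The folate receptor FOLR2 was at 0.23, or 0.07 without siCTRL replicate 3 and 0.38 without siCTRL replicate 2. The folylpolyglutamate synthase FPGS was at -0.13, or -0.05 without siCTRL replicate 1, -0.06 without siCTRL replicate 3, -0.21 without siATF4 replicate 3 and -0.28 without siCTRL replicate 2.

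Genes that use serine or glycine were measured in 12 of 18 cases, 8 lower and 4 higher. The cystathionine beta-synthase gene CBS, which joins serine to homocysteine, was the lowest. It read 4.70, 4.36 and 4.59 with siATF4, compared with 5.04, 4.87 and 5.46 under siCTRL, without overlap, a difference of -0.57 (SE 0.18, limma interval -1.01 to -0.14). Serine racemase (SRR), which interconverts the mirror forms of serine, read 6.84, 5.84 and 5.91 against 5.78, 5.46 and 5.77. Its siATF4 arrays all lay above the controls, with a difference of 0.53 (limma interval -0.13 to 1.18), or 0.21 without siATF4 replicate 1. CTH, the next enzyme after CBS, was at -0.21 and turned to 0.19 without siCTRL replicate 3.

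De novo purine synthesis had 10 of 13 genes measured, 2 lower and 8 higher, all between -0.11 and 0.19. The largest were ADSS1 at 0.19, PFAS at 0.14 and the first enzyme of the pathway, PPAT, at -0.11. Of the methionine cycle 7 of 10 genes were measured, 5 lower and 2 higher. BHMT2 differed by -0.13, the methionine synthase reductase MTRR by -0.11 and methionine synthase (MTR) by 0.11, and for MTRR and MTR the groups did not overlap in spite of the small size. In lower glycolysis, the source of 3-phosphoglycerate, 3 of 7 genes were measured. GAPDH was at -0.03 and PGK1 at 0.02. PGAM1, which draws 3-phosphoglycerate away towards pyruvate, was at -0.63 with an interval from -1.51 to 0.26 in limma, and most of it came from siATF4 replicate 1, where it read 6.56 (without that array -0.20). None of the 7 serine and neutral amino acid transporters listed had a named feature.

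The profiles most like each member were found among the 7442 genes at or above the median mean level. Each profile was centred on its own mean, and likeness is the root mean square distance over the 6 arrays. The nearest to PSAT1 were the secreted glycoprotein gene STC2 (distance 0.19), the asparagine synthetase ASNS (0.24) and the alanyl-tRNA synthetase AARS1 (0.26), where PSAT1's own root mean square deviation from its mean was 0.63. For SHMT2, with a deviation of 0.33, they were 3 further tRNA synthetases, MARS1 (0.07), TARS1 (0.11) and GARS1 (0.11). AARS1 was also nearest to PHGDH (0.17, against a deviation of 0.49), followed by TMPO-AS1 (0.18) and MIS18A (0.20). MTHFD1L, with a deviation of 0.19, had TARS3 (0.05), JDP2 (0.07) and TMEM161B (0.08). PSPH varied least, with a deviation of 0.16, and its nearest profiles were SPG11 (0.04), TRIM16 (0.04) and MRPL14 (0.05). Genes chosen for a like profile share the member's difference between groups by that choice, so none is tested here. Over 6 arrays from 2 groups such distances describe these arrays only.

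**Figure D4:**
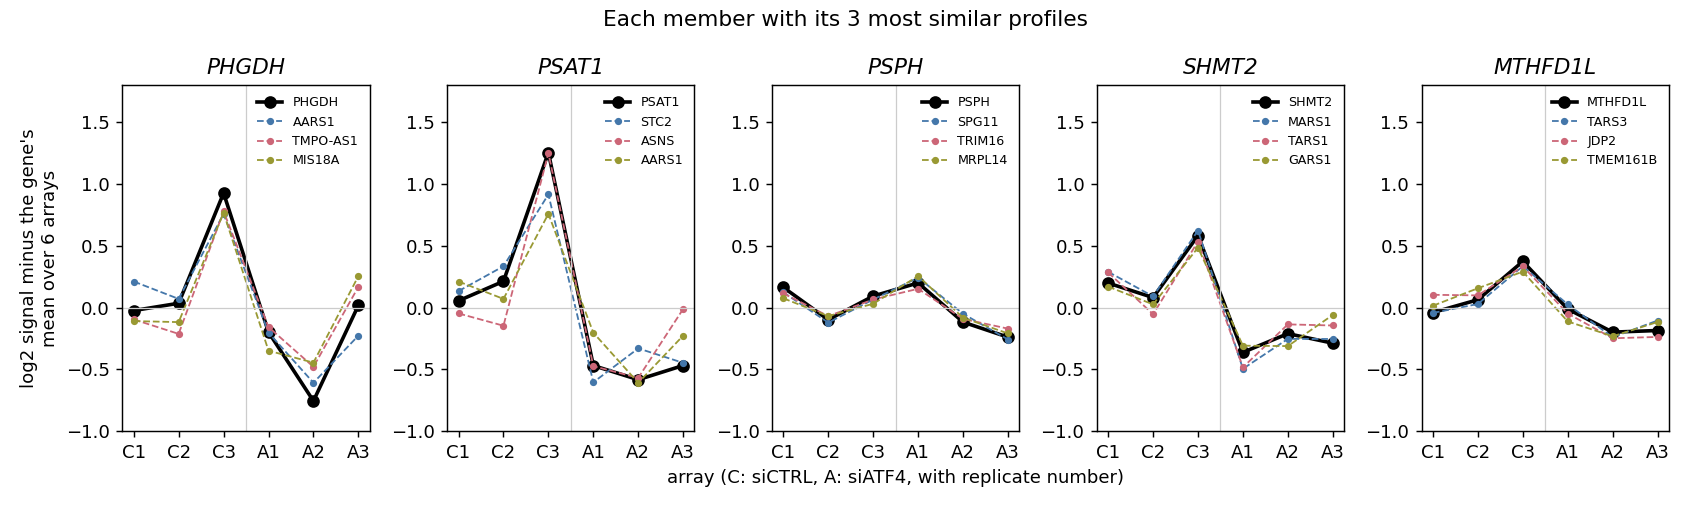
Log2 signal minus the gene's mean over the 6 arrays (vertical axis) for each member (black) and its 3 nearest profiles (dashed), with siCTRL arrays C1 to C3 on the left and siATF4 arrays A1 to A3 on the right. PSAT1, STC2, ASNS and AARS1 all peak on siCTRL replicate 3, while PSPH and its neighbours stay within a narrow band on all arrays.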

How the data were processed

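Total RNA of 6 MOLM14 samples was labelled with an Affymetrix whole-transcript kit, per the labels' protocols, and measured with 1 array per sample. The authors deposited 1 value per feature and array for 53617 features, read here as log2 from their range of 1.91 to 14.24. The software was Partek, per the submitters' processing notes. For its version, background correction and normalization, nothing is given in the sources used here. Moreover, the files used here hold no background per feature, and the number of arrays limits the precision.

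Features were named from the platform annotation (16098 with 1 symbol, 0 with several, 37519 with none), and all 16098 gene identifiers matched RefSeq GRCh38.p14. The brightest feature stood for a gene. The group difference was estimated by limma (version 3.58.1, lmFit followed by eBayes, R version 4.3.3) without further terms. P-values were adjusted by Benjamini-Hochberg, with a threshold of 0.05. The fit was tested on simulated data. Single values had exact two-sided permutation tests (scipy 1.17.1). The members and gene lists were chosen with earlier results of these data known.

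The text names ATF4, the members, SHMT1, the 3 largest differences of each pathway list and the 3 nearest profiles of each member. Markers outside these were named after their values were seen. Deviations from group means correlated across genes at 0.20, 0.40 and 0.62 between arrays of numbers 1, 2 and 3, but siATF4 replicate 2 correlated at 0.48 with siCTRL replicate 1. The labels do not say that the numbers are pairs. The main fit and the permutation tests therefore left them unpaired, with the replicate block as an alternative. MTHFD1, planned as the counterpart of MTHFD1L, was not analysed here, as it has no named feature. The alternatives tried were other scalings, the replicate block, another variance model, array weights, a filter on dim genes, averaged features and left-out arrays.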

Additional observations from a re-analysis of the deposited data

How the results depend on the processing

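The differences of the 5 members and ATF4 kept their direction and stayed outside the adjusted threshold under 95 of 96 alternatives. The exception was PSPH at 0.0084 without both arrays of number 3. The tally includes settings that cannot change these estimates: the replicate block, the other variance model, the filter on dim genes and averaged features. No gene was called under any setting, so the threshold part of the tally does not set these genes apart. The replicate block cannot change the estimates, since every number has an array in each group. With and without it they were -0.62 (PHGDH), -1.01 (PSAT1), -0.11 (PSPH), -0.57 (SHMT2), -0.26 (MTHFD1L) and -0.80 (ATF4). Just the standard errors and p-values can differ. With the block limma's adjusted p was 0.999 for each and 0 genes were called, so no call at the adjusted threshold changed. At an unadjusted p below 0.05 the block raised the lower genes from 79 to 139 and the higher ones from 139 to 325, and it brought PHGDH and SRR below that level. With each array left out the ranges were -0.79 to -0.32 (PHGDH), -1.24 to -0.64 (PSAT1), -0.23 to -0.01 (PSPH), -0.68 to -0.43 (SHMT2), -0.35 to -0.14 (MTHFD1L), -0.91 to -0.71 (ATF4) and -0.63 to -0.33 (SHMT2 minus SHMT1), with 0 genes called. The count of members without overlap was 2 to 4 there. Without both arrays of number 1, 2 or 3 it was 5, 2 and 3, and leaving arrays out can only keep or raise it. No share of all genes is at hand for these counts. Genes called also numbered 0 at an adjusted threshold of 0.01 and over all 53617 features. MTHFD1L minus MTHFD1 was not run.

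Among 19 named pathway genes 22 of 302 alternatives turned the sign. The same settings that cannot change the members' estimates left these unchanged too. Ranges with an array left out were -0.0041 to 0.31 (ADSS1), -0.51 to 0.19 (CTH), -0.13 to 0.0487 (GAPDH), -0.23 to 0.47 (MTHFD2L), -0.07 to 0.12 (PGK1), -0.24 to 0.0552 (PPAT), -0.22 to 0.48 (SFXN3), -0.23 to 0.0131 (SHMT1) and -0.54 to 0.0084 (TYMS). Without both arrays of number 1, ADSS1 was at -0.0472, PFAS at -0.0014, PGK1 at -0.0036 and PPAT at 0.0311. Without number 3, CTH was at 0.30, MTHFD2L at -0.0741 and PGK1 at -0.0443. Array weights gave 0.0247 (GAPDH), -0.0482 (PGK1) and -0.17 (SFXN3), and quantile normalization -0.0023 (PGK1). The cause of these turns was not tested. The other named genes kept their sign with an array left out but moved: SFXN1 from 0.13 to 0.49, FOLR2 from 0.07 to 0.38, FPGS from -0.28 to -0.05, CBS from -0.70 to -0.41, SRR from 0.21 to 0.70, BHMT2 from -0.23 to -0.03, MTRR from -0.14 to -0.06, MTR from 0.08 to 0.15, PFAS from 0.02 to 0.23 and PGAM1 from -0.94 to -0.20.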
